A study of Rattus norvegicus with 12 samples.

Results

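The genes described here carry tumour necrosis factor (TNF) signalling to the transcription factor NF-kB: the gene Tnf itself, the other TNF-family ligands (Tnfsf) and receptors (Tnfrsf), the TNF receptor-associated factors (Traf), the TNF-induced proteins (Tnfaip), and the NF-kB subunits, their inhibitors and the IkB kinases (Rela, Nfkb and Ikbk). They were chosen by their names on the array, whatever their signal. There were 59 such genes among the 19394 gene names of the array. Of these, 33 could be tested for diet, because their probe was flagged good by the scanner software on at least 6 of the 12 arrays. They stand among 10449 tested genes in all, of 21893 genes under the naming used for the tests. Traf1 sits on the array under a locus name and was identified through its RefSeq accession. It was therefore not one of the 59, and its values are given separately.

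The study asked how colon transcripts respond to more dietary protein. Male Wistar rats weighing 180 to 200 g ate a high-protein diet (6 arrays) or a normal-protein diet (6 arrays) for 6 weeks, and total RNA labelled as colonic epithelium was hybridised with Cy3 to single-colour Agilent arrays. The labels give no age, no protein content of either diet, and no statement that the replicates of a diet were separate animals, so p-values measure the spread between these samples, which may be in part technical. All levels below are log2 intensities after background correction and quantile normalization, and every difference is high protein minus normal protein on that scale.

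TNF-family ligands bind trimeric receptors on the cell surface, and the receptors recruit TRAF adaptors that build ubiquitin platforms inside the cell. These platforms activate the IkB kinases, which mark the IkB inhibitors for destruction and so release NF-kB dimers to the nucleus. Several NF-kB target genes, Nfkbia among them, encode inhibitors of the pathway, which gives negative feedback. In the gut, NF-kB acts in epithelial cells in barrier defence and survival and in immune cells in inflammation, and some of the receptors are found mainly on lymphocytes.

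The promoter windows below are shown because the receptor Tnfrsf12a had the largest difference between the diets, and because Nfkbia, Nfkbib, Nfkbie, Nfkbil1 and Nfkb2 shared their highest normal-protein array, replicate 3. Nfkb1, another NF-kB subunit gene, was lowest among the normal-protein arrays on that array and is added for comparison. Each is the RefSeq sequence of the GRCr8 assembly from 250 bases before to 50 bases after the start of the gene, on the gene's strand, and capitals mark a match to the 10-base kB consensus, the DNA sequence that NF-kB dimers bind, on either strand. No window was available for Nfkbil1. Tnfrsf12a lies on the minus strand at chr10:13213599-13213898 and its window holds 0 matches. Nfkbib lies on the minus strand at chr1:93181338-93181637, also with 0 matches. Nfkb1 is on the minus strand at chr2:226805413-226805712, Nfkb2 on the plus strand at chr1:255108124-255108423, Nfkbia on the minus strand at chr6:78597023-78597322, and Nfkbie on the minus strand at chr9:22947823-22948122, with 1 match each.
Tnfrsf12a: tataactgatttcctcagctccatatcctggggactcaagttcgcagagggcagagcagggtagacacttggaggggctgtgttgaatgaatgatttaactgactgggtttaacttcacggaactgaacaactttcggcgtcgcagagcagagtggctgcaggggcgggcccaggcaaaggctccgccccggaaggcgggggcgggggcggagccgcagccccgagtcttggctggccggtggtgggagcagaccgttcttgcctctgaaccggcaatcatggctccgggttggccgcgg
Nfkb1: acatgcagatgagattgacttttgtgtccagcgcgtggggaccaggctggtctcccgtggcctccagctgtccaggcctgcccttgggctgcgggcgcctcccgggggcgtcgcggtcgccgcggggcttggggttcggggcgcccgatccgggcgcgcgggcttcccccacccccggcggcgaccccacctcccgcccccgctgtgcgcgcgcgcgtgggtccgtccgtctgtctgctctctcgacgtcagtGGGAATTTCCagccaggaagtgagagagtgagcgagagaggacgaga
Nfkb2: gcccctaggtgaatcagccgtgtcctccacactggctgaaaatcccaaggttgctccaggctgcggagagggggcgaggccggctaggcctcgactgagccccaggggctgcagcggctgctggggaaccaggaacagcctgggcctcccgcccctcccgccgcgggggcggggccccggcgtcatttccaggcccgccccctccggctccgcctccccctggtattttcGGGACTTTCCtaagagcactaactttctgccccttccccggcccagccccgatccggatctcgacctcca
Nfkbia: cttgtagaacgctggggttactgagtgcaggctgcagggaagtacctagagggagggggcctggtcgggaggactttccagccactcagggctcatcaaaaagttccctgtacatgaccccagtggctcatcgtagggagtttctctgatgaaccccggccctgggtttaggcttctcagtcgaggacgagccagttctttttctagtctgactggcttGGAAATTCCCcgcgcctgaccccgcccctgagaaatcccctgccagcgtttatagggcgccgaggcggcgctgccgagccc
Nfkbib: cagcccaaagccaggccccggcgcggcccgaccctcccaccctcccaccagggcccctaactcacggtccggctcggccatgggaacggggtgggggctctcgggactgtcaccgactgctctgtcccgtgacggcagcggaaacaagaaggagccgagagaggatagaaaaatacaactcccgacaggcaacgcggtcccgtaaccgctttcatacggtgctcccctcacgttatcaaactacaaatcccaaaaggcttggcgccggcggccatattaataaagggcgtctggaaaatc
Nfkbie: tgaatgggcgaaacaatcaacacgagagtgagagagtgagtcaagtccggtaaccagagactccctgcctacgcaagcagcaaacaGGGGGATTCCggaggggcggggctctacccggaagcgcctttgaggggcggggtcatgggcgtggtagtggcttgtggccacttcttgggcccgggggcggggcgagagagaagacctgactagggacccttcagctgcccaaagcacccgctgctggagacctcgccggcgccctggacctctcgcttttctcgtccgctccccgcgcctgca

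The match began 20 bases before the gene start in Nfkb2, 31 bases before it in Nfkbia and 164 bases before it in Nfkbie. In Nfkb1 it began just after the gene start. Of the 33 tested genes, 25 had a window in the table, and 8 of these (32.0%) held the consensus, against 7.60% of all 27457 windows of the same length. The other 4 were Tnfaip8l1, Traf3, Traf3ip2 and Traf7. The 27457 windows include genes that were not tested here, and the share among all tested genes was not computed. A match describes letters in a window and does not show binding.

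Detection differed by role. Of 11 ligand genes, 2 could be tested and 6 were flagged good on no array. Of 19 receptors, 11 could be tested and 7 were never good. Of 9 Traf genes, 6 were tested, and of 7 Tnfaip genes, 5 were tested. Among the 13 NF-kB and IkB kinase genes, 9 were tested and 3 were never good. The pathway's intracellular parts were thus measured more completely than its ligands, as the plot of detection by diet shows. Over all genes, 10449 of 21893 could be tested, so the ligands lay below that share and each other role above it. Of the 26 genes that could not be tested, 7 were good on 1 to 5 arrays. Tnfsf9 and Tnfsf13b were good on 0 high-protein arrays and 1 normal-protein array each, Tnfrsf25 on 2 and 0, Traf3ip3 on 1 and 0, Trafd1 on 1 and 1, and Nfkbiz, an atypical nuclear IkB protein, on 4 and 1. Tnf is described below. The 19 genes never flagged good included the ligands Tnfsf10, Tnfsf11, Tnfsf14 and Tnfsf15, the lymphocyte receptors Tnfrsf13b, Tnfrsf13c, Tnfrsf18 and Tnfrsf9, and Ikbkg, the regulatory subunit of the IkB kinase complex. For these genes the lack of the good flag does not show that the transcripts were absent.

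**Figure D1:**
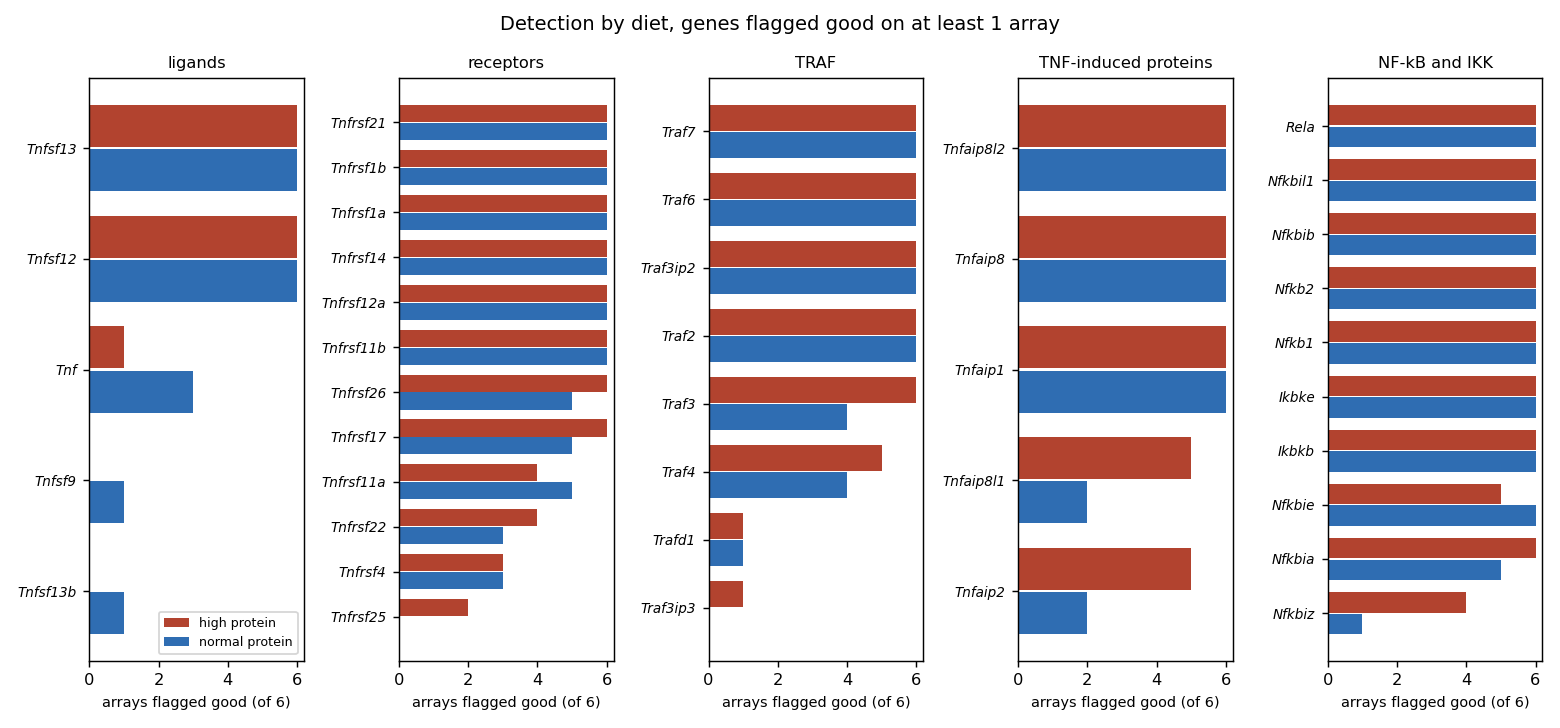
Number of arrays (of 6 per diet) on which each gene was flagged good, by role, with the high-protein bar above the normal-protein bar; the 19 genes never flagged good are left out. Of the ligands, Tnfsf12 and Tnfsf13 alone reach 6 arrays in both diets, while 7 of the 13 NF-kB and IkB kinase genes do.

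No tested gene of this pathway passed the threshold for a diet difference. By limma with Benjamini-Hochberg adjustment over all 10449 genes, 0 of 33 had an adjusted p under 0.05, and the smallest was 0.70, where the background was 0% of all genes. At an unadjusted p under 0.05 there were 3 of 33 genes (9.09%), against 6.62% of all genes. These were Ikbkb and Ikbke, higher in high protein (2 genes, background 3.67%), and Tnfrsf12a, lower in high protein (1 gene, background 2.96%). The difference was above 0 for 18 genes and below 0 for 15, with 51.5% above 0 over all genes, and its median was 0.01, against 0.005 over all genes. The range ran from -0.64 (Tnfrsf12a) to 0.29 (Tnfrsf14). In 0 of 33 genes did all high-protein arrays lie above, or all below, all normal-protein arrays, with a background of 0.287% above and 0.0957% below.

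On the processed scale, most genes were bounded. The 95% interval reached no further than 1.5-fold in either direction for 28 of the 33 genes, and no further than 2-fold for 31. Over all genes, 84.7% stayed within 1.5-fold. All 9 NF-kB and IkB kinase genes, all 6 Traf genes and all 5 Tnfaip genes were within 1.5-fold, against 7 of 11 receptors and 1 of 2 ligands. The addition of a constant of 50 intensity units to every signal shrinks the differences of dim genes, so these bounds are on the processed scale. The dim genes Tnfrsf4 and Tnfrsf11a, both bounded here, differed by 0.73 and -0.65 in the deposited value table moved by 1 row, which is beyond 1.5-fold.

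**Figure D2:**
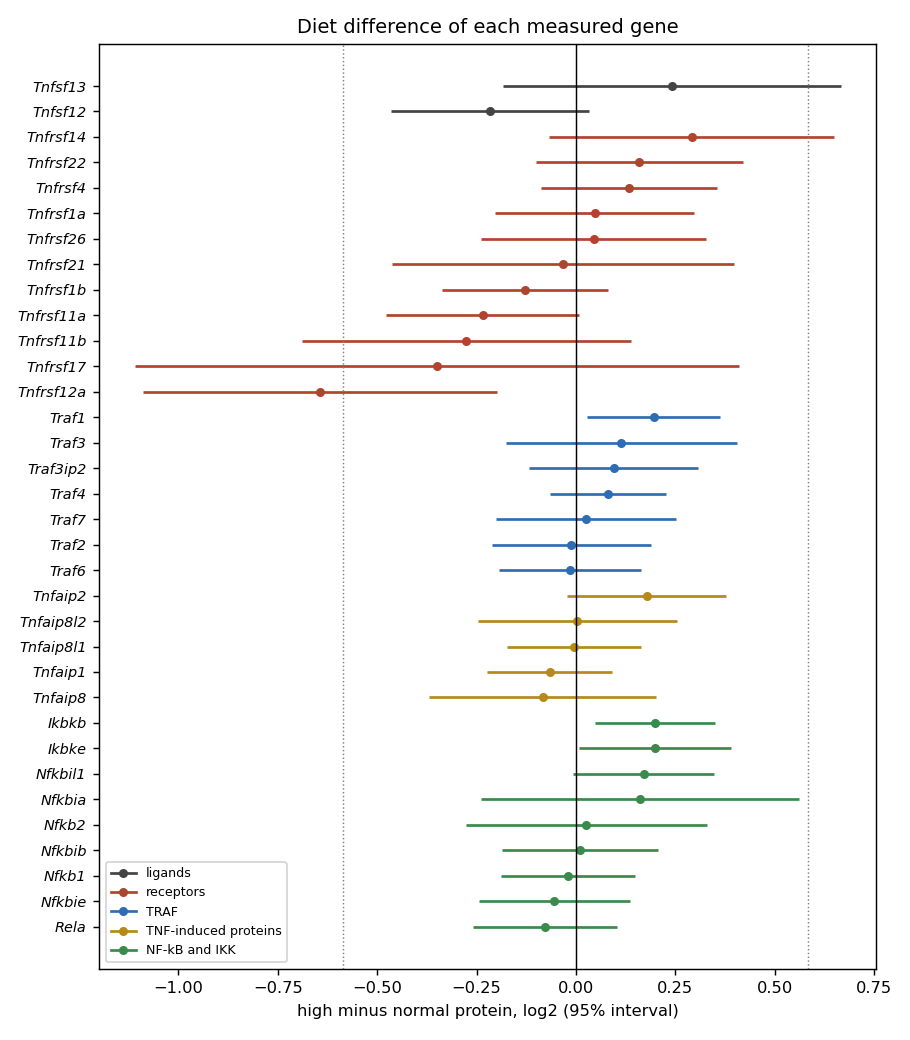
Difference in log2 intensity, high protein minus normal protein, of the 33 tested genes and Traf1, as points with 95% intervals from limma and coloured by role. Dotted lines mark 1.5-fold in either direction, and the interval of Tnfrsf12a is the lowest, from -1.09 to -0.20.

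Among the ligands, Tnf itself was near the limit of detection. Signal minus local background was 25, 25, 72, 47, 22 and 31 intensity units in high-protein replicates 1 to 6, against 21, 21, 104, 45, 62 and 24 in normal-protein replicates 1 to 6. Its spot was flagged good on 1 high-protein array (replicate 3) and on 3 normal-protein arrays (replicates 3, 4 and 5). Normalized levels were 6.29, 6.37, 6.86, 6.73, 6.26 and 6.30 in high protein, against 6.24, 6.23, 7.98, 6.54, 6.82 and 6.37 in normal protein. The groups overlapped, and 1 array, normal protein replicate 3, stood far above the rest. The share of good gene spots was also lowest on that array, at 42.67%, against 48.45% to 55.86% on the other 11 arrays. Tnf was left out of the comparison of tested genes. With no filter on dim probes its difference was -0.23 (limma adjusted p = 0.88).

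Tnfsf12, the cytokine TWEAK, which acts in tissue repair through the receptor encoded by Tnfrsf12a, had a low, median and high level of 9.59, 9.77 and 10.22 in high protein, against 9.91, 9.99 and 10.33 in normal protein. Of the high-protein arrays, 4 lay below every normal-protein array and 1 lay above the normal mean. The difference was -0.22 ± 0.12 (SE, n = 6 each; limma adjusted p = 0.73), and -0.06 with scaling to the median. Tnfsf13, the cytokine APRIL, which supports plasma cells, ranged from 8.41 to 9.22 with a median of 9.03 in high protein, against 7.91 to 9.14 with a median of 8.66 in normal protein. The difference was 0.24 ± 0.20 (SE; limma adjusted p = 0.80), smaller than the spread within each diet (SD 0.31 in high protein and 0.43 in normal protein). It was 0.09 without normal protein replicate 6 and 0.39 with scaling to the median.

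Tnfrsf12a, the TWEAK receptor known as Fn14, which is induced in injured and regenerating tissue, had the largest difference of the pathway. Its level was 7.18, 7.42, 6.65, 7.36, 7.27 and 7.43 in high-protein replicates 1 to 6, against 7.73, 7.33, 7.76, 8.03, 8.71 and 7.61 in normal-protein replicates 1 to 6. All 6 high-protein arrays lay below the normal mean and 3 lay below every normal-protein array. The groups overlapped through normal protein replicate 2. The mean was 7.22 ± 0.30 in high protein and 7.86 ± 0.47 in normal protein (SD, n = 6 each), a difference of -0.64 ± 0.21 (SE; 95% interval -1.09 to -0.20), or a ratio of 0.64. By limma the unadjusted p was 0.008 and the adjusted p 0.70, so it did not pass. The 12 arrays lay on 3 slides, each with 2 arrays of each diet. Each slide held 1 of the 3 highest arrays for this gene, normal protein replicates 3, 4 and 5. The difference within the slides was -0.44, -0.76 and -0.73. In the authors' deposited value table, with its identifiers moved by 1 row, it was -0.97 (limma adjusted p = 0.75). The ligand and its receptor both had means lower in high protein, and neither passed the test.

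Tnfrsf11a, the receptor RANK, known from bone and from the epithelium over lymphoid follicles, lay at 6.40 to 6.88 with a median of 6.52 in high protein, against 6.54 to 7.12 with a median of 6.86 in normal protein. It was dim, and was flagged good on 4 high-protein and 5 normal-protein arrays. The difference was -0.23 ± 0.11 (SE; limma adjusted p = 0.73) and within the slides -0.19, -0.29 and -0.22. In the deposited value table moved by 1 row it was -0.65 (limma adjusted p = 0.75). Tnfrsf11b, the decoy receptor osteoprotegerin, which binds the ligand of RANK, differed by -0.28 ± 0.19 (SE; limma adjusted p = 0.76) and is named after its values were seen. Normal protein replicates 4 and 5, at 8.19 and 8.67, were well above its other 10 arrays, which lay between 7.40 and 7.78, and without replicate 5 the difference was -0.11. Normal protein replicate 5 was also the highest array for Tnfrsf12a and Tnfrsf11a, and it was the highest normal-protein array for 11 of the 33 genes (33.3%), against 11.6% of all genes.

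Tnfrsf17, the receptor BCMA of plasma cells, varied most between arrays of the same diet, with a within-diet SD of 0.69, against a median of 0.18 for the 33 genes and 0.20 for all genes. It was at 8.37, 6.97, 7.02, 7.04, 7.58 and 6.55 in high-protein replicates 1 to 6, against 7.69, 8.19, 8.46, 7.61, 7.28 and 6.39 in normal-protein replicates 1 to 6. The groups overlapped over nearly their whole range. The difference was -0.35 ± 0.35 (SE; 95% interval -1.11 to 0.41; limma adjusted p = 0.82). The mean log2 level of the 3 tested of 9 B and plasma cell markers (Mzb1, Pax5 and Xbp1) ran from 7.53 to 8.06 over the high-protein arrays and from 7.82 to 8.18 over the normal-protein arrays. High protein replicate 1 and normal protein replicate 3, the highest arrays of their diets for Tnfrsf17, were also the highest of their diets for that score, at 8.06 and 8.18. With a score of T and B cell markers as a covariate, the difference in Tnfrsf17 turned to 0.082. In bulk samples of this kind, fewer cells of a type and less RNA per cell cannot be told apart.

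The receptors for TNF itself had small differences. Tnfrsf1a, the receptor with a death domain, lay between 8.88 and 9.43 with a median of 9.26 in high protein, against 8.84 and 9.38 with a median of 9.19 in normal protein, a difference of 0.05 ± 0.12 (SE). It turned to -0.068 with the macrophage and dendritic score as a covariate and to -0.019 without normal protein replicate 1. Tnfrsf1b, which lacks a death domain and acts mainly in immune and endothelial cells, differed by -0.13 ± 0.10 (SE), and by -0.19 on a further probe of the same name. Tnfrsf14, the receptor HVEM of mucosal epithelium and lymphocytes, had the highest difference of the 33 genes at 0.29 ± 0.17 (SE; limma adjusted p = 0.73). Its levels were 9.09 to 9.99 with a median of 9.49 in high protein, against 8.93 to 9.59 with a median of 9.24 in normal protein. Tnfrsf26, a decoy-type receptor known from the mouse, lay between 6.86 and 7.04 in high protein, against 6.66 and 7.55 in normal protein. Its difference of 0.05 ± 0.13 (SE) turned to -0.063 with scaling to the 75th percentile, to -0.028 with the deposited signal less negative controls, and to -0.0044 without normal protein replicate 5. Tnfrsf4 and Tnfrsf22 were flagged good on 6 and 7 of the 12 arrays and differed by 0.13 and 0.16. With scaling to the 75th percentile these were -0.020 and 0.021, and in the deposited value table moved by 1 row 0.73 and 0.57. Tnfrsf21 is described with the position genes below. Tnfrsf1a, Tnfrsf1b and Tnfrsf14 are named after their values were seen.

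**Figure D3:**
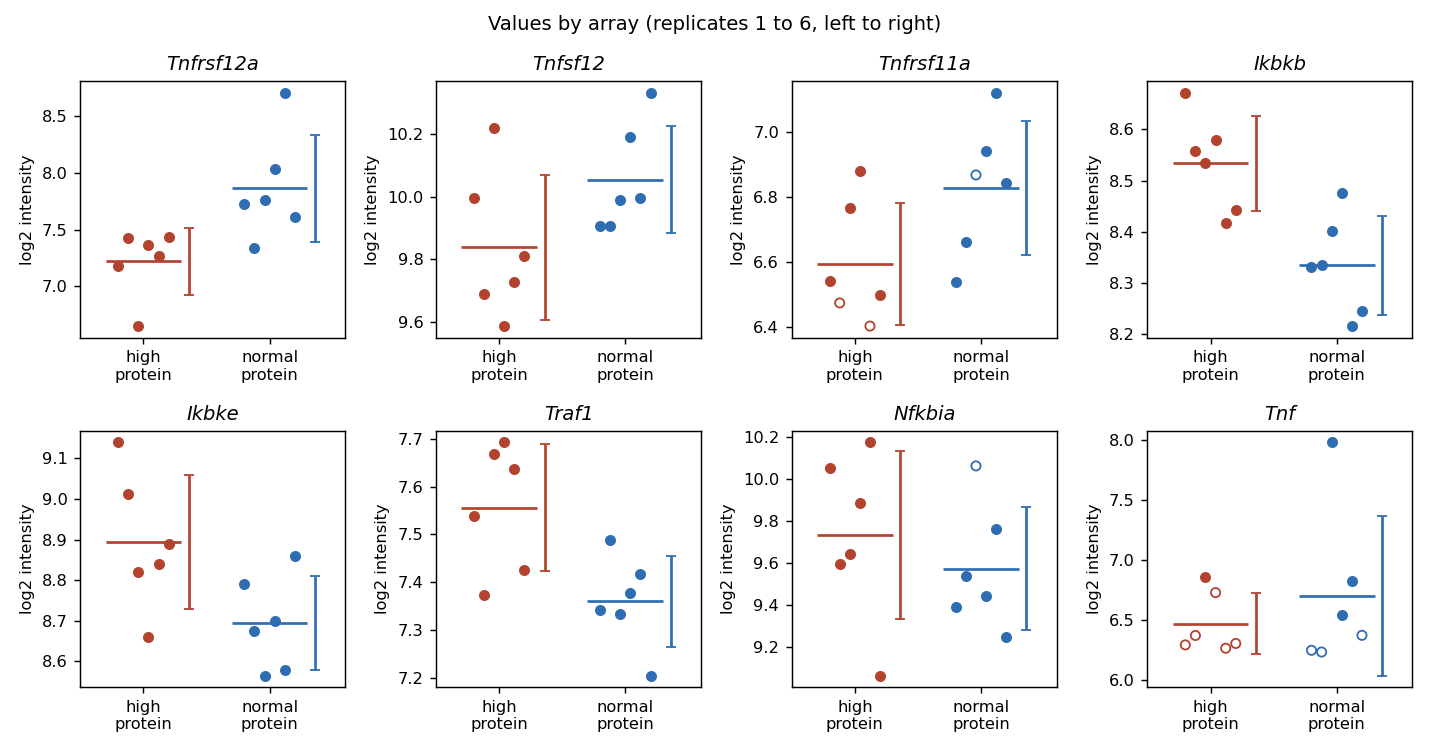
Log2 intensity on each array of 8 genes, with high protein left of normal protein and replicates 1 to 6 from left to right within a diet. Horizontal lines are means, vertical bars are ± 1 SD (n = 6), and open points are arrays on which the spot was not flagged good. In each panel the groups overlap, and normal protein replicate 3 stands at 7.98 for Tnf.

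Among the adaptors, Traf1, which has no ubiquitin ligase domain and works in complexes with Traf2, was at 7.54, 7.37, 7.67, 7.69, 7.64 and 7.43 in high-protein replicates 1 to 6, against 7.34, 7.49, 7.33, 7.38, 7.42 and 7.20 in normal-protein replicates 1 to 6. All 6 high-protein arrays lay above the normal mean and 4 lay above every normal-protein array. The means were 7.56 ± 0.13 in high protein and 7.36 ± 0.10 in normal protein (SD), a difference of 0.20 ± 0.08 (SE; 95% interval 0.03 to 0.36), or a ratio of 1.15. The limma p was 0.026 unadjusted and 0.71 adjusted, so it did not pass. Within the slides the difference was 0.12, 0.25 and 0.22. In the deposited value table moved by 1 row it was 0.30 (limma adjusted p = 0.75).

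The other Traf genes differed less. Traf3, which restrains the noncanonical arm of NF-kB, differed by 0.11 ± 0.13 (SE), with levels of 6.83 to 7.34 (median 6.91) in high protein, against 6.39 to 7.17 (median 6.99) in normal protein. Its mean and its median thus differed in direction. The difference was 0.01 without normal protein replicate 2, 0.02 with scaling to the 75th percentile and 0.32 in the deposited value table moved by 1 row. Traf3ip2, the adaptor Act1 of the IL-17 receptor, was the brightest of the group, at 9.46 to 9.73 (median 9.59) in high protein, against 9.16 to 9.65 (median 9.60) in normal protein, a difference of 0.09 ± 0.10 (SE). Traf4 was at 6.60 to 6.87 (median 6.77) in high protein, against 6.58 to 6.80 (median 6.66) in normal protein. Its difference of 0.08 ± 0.07 (SE) turned to -0.033 with scaling to the 75th percentile. Traf2 and Traf6, the ubiquitin ligase adaptors of the TNF receptors and of the IL-1 and Toll-like receptors, each differed by -0.01 and turned with scaling to the median, to 0.067 and 0.027, and Traf7 by 0.03. The adjusted p of the 6 tested Traf genes was at least 0.80.

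Of the TNF-induced proteins, Tnfaip2, named for its induction by TNF in endothelial cells, had the smallest p of its group. It was at 6.55 to 6.94 (median 6.66) in high protein, against 6.33 to 6.77 (median 6.49) in normal protein, and was flagged good on 5 high-protein arrays and 2 normal-protein arrays. The difference was 0.18 ± 0.09 (SE; limma adjusted p = 0.73). It was 0.05 with scaling to the 75th percentile and 0.37 in the deposited value table moved by 1 row. Tnfaip8, a lipid-binding regulator of cell death, was at 8.23 to 8.87 (median 8.41) in high protein, against 8.32 to 8.87 (median 8.43) in normal protein. Its difference of -0.08 ± 0.13 (SE) turned to 0.048 with scaling to the median. Tnfaip1, a substrate adaptor of a ubiquitin ligase, differed by -0.07 ± 0.07 (SE), with levels of 7.03 to 7.35 (median 7.11) in high protein, against 7.15 to 7.35 (median 7.18) in normal protein. Tnfaip8l2, an immune restraint factor known from the mouse, and Tnfaip8l1 differed by 0.003 and -0.004, each turning in 4 of the other settings.

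Among the kinases, Ikbkb, the catalytic subunit that phosphorylates IkB proteins in the canonical pathway, was at 8.67, 8.56, 8.53, 8.58, 8.42 and 8.44 in high-protein replicates 1 to 6, against 8.33, 8.34, 8.40, 8.48, 8.22 and 8.25 in normal-protein replicates 1 to 6. All 6 high-protein arrays lay above the normal mean and 4 lay above every normal-protein array, while high protein replicates 5 and 6 lay below normal protein replicate 4. The means were 8.53 ± 0.09 in high protein and 8.33 ± 0.10 in normal protein (SD), a difference of 0.20 ± 0.07 (SE; 95% interval 0.05 to 0.35), or a ratio of 1.15. The limma p was 0.014 unadjusted and 0.70 adjusted. Within the slides it was 0.25, 0.28 and 0.07.

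Ikbke, an IkB kinase relative that acts with Tbk1 in interferon induction, was at 9.14, 9.01, 8.82, 8.66, 8.84 and 8.89 in high-protein replicates 1 to 6, against 8.79, 8.68, 8.56, 8.70, 8.58 and 8.86 in normal-protein replicates 1 to 6. Of the high-protein arrays, 3 lay above every normal-protein array and 1, replicate 4, lay below the normal mean. The difference was 0.20 ± 0.09 (SE; 95% interval 0.007 to 0.39; limma adjusted p = 0.73). Within the slides it was 0.40, 0.06 and 0.14, so the first slide held the largest part of it. Ikbkb, Ikbke and Traf1 thus had differences of the same size, each a ratio of 1.15, and none of them passed the adjusted threshold. With scaling to the median, Ikbkb and Ikbke differed by 0.33 and 0.34.

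The NF-kB subunits were close in the 2 diets. Rela, the main transactivating subunit, differed by -0.08 ± 0.08 (SE) and Nfkb1 by -0.02 ± 0.08, and both turned with scaling to the median, to 0.057 and 0.080. Nfkb2, of the noncanonical arm, differed by 0.03 ± 0.14 (SE) and turned to -0.0034 with scaling to the 75th percentile. Of the inhibitors, Nfkbia (IkB alpha), the feedback gene of the pathway, was at 10.06, 9.60, 9.64, 9.89, 10.18 and 9.06 in high-protein replicates 1 to 6, against 9.39, 9.54, 10.06, 9.44, 9.76 and 9.25 in normal-protein replicates 1 to 6. Its difference of 0.16 ± 0.19 (SE; limma adjusted p = 0.84) was smaller than the spread within a diet, with an SD of 0.40 in high protein and 0.29 in normal protein. It lay between 0.07 without high protein replicate 5 and 0.30 without high protein replicate 6. Nfkbil1, an IkB-like gene, differed by 0.17 ± 0.08 (SE; limma adjusted p = 0.73), Nfkbib by 0.01 ± 0.09 (-0.059 with scaling to the 75th percentile) and Nfkbie by -0.05 ± 0.09. Nfkbie was at 6.56 to 7.01 (median 6.72) in high protein, against 6.68 to 7.06 (median 6.76) in normal protein. Apart from Ikbkb, Ikbke and Nfkbie, the genes of this paragraph are named after their values were seen.

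Normal protein replicate 3 was the highest normal-protein array for Nfkbia, Nfkbie, Nfkbil1, Nfkbib and Nfkb2, which is 5 of the 9 tested NF-kB and IkB kinase genes, against 19.6% of all genes. It was also the highest array for Tnf. Over all 33 genes the share was 27.3% (9 genes). Of the windows printed above, those of Nfkbia, Nfkbie and Nfkb2 hold the kB consensus and that of Nfkbib does not. For Nfkbil1 no window was available. Nfkb1, whose window holds the consensus, was lowest on that array among the normal-protein arrays, at 7.82. The spot of Nfkbia on that array was not flagged good. Before normalization that array was not the highest for any of the 5 genes that peaked on it. There, signal minus local background was 42 for Nfkbie and 80 for Nfkbil1, the lowest of the normal-protein arrays. For Nfkbib, Nfkb2 and Nfkbia it was 61, 121 and 556, next to the lowest, while Tnf was highest at 104. The median signal of gene spots was 26 on that array, against 42 to 57 on the other normal-protein arrays. The part of this low signal in the normalized values was not tested. In high protein, replicate 1 was the highest for Ikbkb, Ikbke, Rela and Nfkb2, and for 8 of the 33 genes (24.2%), against 15.7% of all genes. Replicate 4 of that diet was the highest for more, 11 of the 33 genes (33.3%), against 18.9% of all genes, Nfkbie and Nfkb1 among them.

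The position of a sample along the colon was read from Hoxb13, a gene of the distal colon, and Hoxb6, a gene of more proximal gut, which were chosen after their values were seen in earlier work on these data. Hoxb13 was near 12 or above, up to 12.56, in high protein replicates 1, 2, 5 and 6 and in normal protein replicates 1 and 2, and at most 9.32 in the others. In these 6 arrays Tnfsf13 lay between 9.01 and 9.22, and in the other 6 between 7.91 and 8.75, with arrays of both diets in each range. With a score of the position genes as a covariate, its diet difference was 0.18, that of Tnfrsf12a -0.66, and those of Ikbkb and Traf1 0.20 each. Normal protein replicates 3, 4 and 5 were low in Hoxb6, at 6.71, 6.90 and 7.10, without the high Hoxb13 of the distal arrays. No high-protein array had this combination, so for these arrays position and diet cannot be told apart, and the covariate cannot separate them. Tnfrsf12a was highest of all arrays there, at 7.76, 8.03 and 8.71. Each slide held 1 of these 3 arrays, so the differences of Tnfrsf12a and Tnfrsf11a within the slides cannot separate position from diet.

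Tnfrsf21, the death receptor DR6, was highest in high protein replicates 3 and 4 and normal protein replicate 6, the 3 arrays with Hoxb6 above 10. Its probe is spotted 10 times on each array, and it is named after its values were seen. By the median of the 10 spots it was at 7.55, 7.52, 8.36, 8.30, 7.44 and 7.68 in high-protein replicates 1 to 6, against 7.74, 7.56, 7.93, 8.04, 8.02 and 8.18 in normal-protein replicates 1 to 6. On high protein replicate 4, 1 spot read 12.14 while the other 9 lay between 7.71 and 8.41, so that the mean of the spots was 8.60. The diet difference was -0.03 by the mean of the spots and -0.10 by their median, and turned to 0.053 with scaling to the median. These relations are descriptions of 12 arrays that fall into separate clusters by position, and no correlation was computed.

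**Figure D4:**
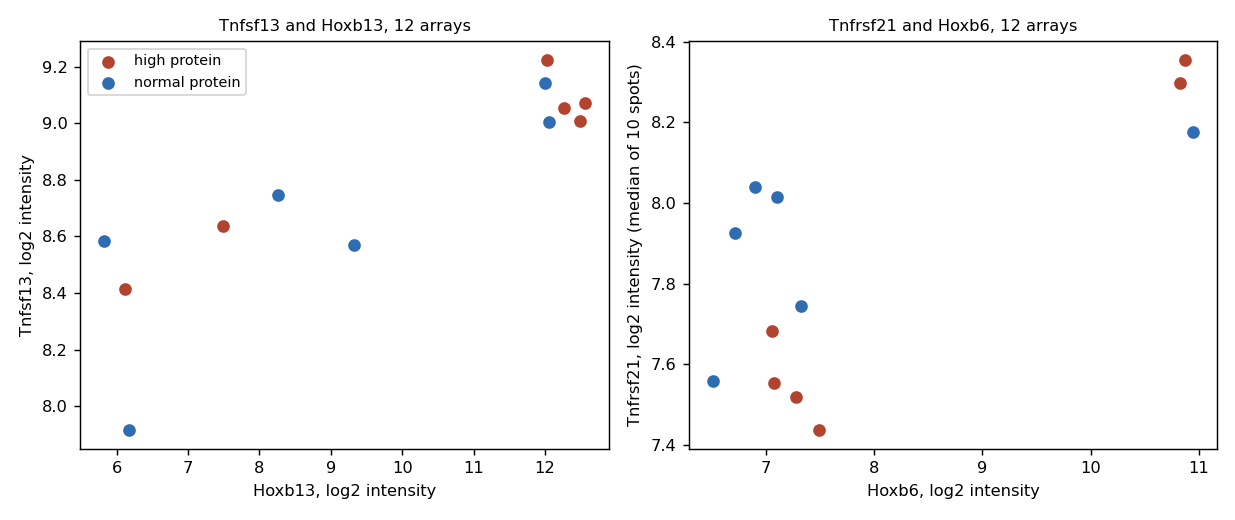
Log2 intensity of Tnfsf13 against Hoxb13 and of Tnfrsf21 (median of its 10 spots) against Hoxb6, 1 point per array and diets by colour. Tnfsf13 is at 9.01 or higher in 4 high-protein and 2 normal-protein arrays, those with the highest Hoxb13, and Tnfrsf21 is highest in the 3 arrays with Hoxb6 above 10.

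Genes of the same pathway that do not carry these names were taken from 4 lists, and 0 of their 50 tested genes passed the adjusted threshold by limma. Of 14 TNF-superfamily genes under other names, 4 were tested, 0 with an unadjusted p under 0.05. Ltbr, the lymphotoxin beta receptor, differed by 0.25, Ltb by 0.12, Ngfr by -0.03 and Cd40 by -0.01. Of 23 genes of the TNF receptor complex and death signalling, 15 were tested, with 1 higher in high protein at an unadjusted p under 0.05 (background 3.67%) and 0 lower (background 2.96%). The gene was Tab1, a binding partner of the kinase encoded by Map3k7, at 9.47 in high protein and 9.27 in normal protein (limma adjusted p = 0.73). Sharpin, of the linear ubiquitin ligase complex, differed by 0.16, Tab2 by -0.11 and Tank by -0.07. Of 17 genes of the noncanonical and kinase arm, 9 were tested and 0 had an unadjusted p under 0.05. Their differences ran through Btrc at 0.07 and Map2k6 at 0.05 to Map2k3 at -0.07 and Cul1 at -0.15.

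The last list named 37 genes as NF-kB targets, among them the transcription factor genes Jun, Fos, Creb3 and Cebpb. Whether NF-kB controls each of them in these samples was not tested. Of the 37, 22 were tested for diet, with 1 higher (background 3.67%) and 1 lower (background 2.96%) in high protein at an unadjusted p under 0.05. Cebpb, a transcription factor of the acute response, was at 9.80 in high protein and 9.56 in normal protein (difference 0.24 ± 0.10, SE; limma adjusted p = 0.73). Ccl5, a chemokine made largely by T cells, was at 8.14 in high protein and 8.70 in normal protein (difference -0.57 ± 0.22, SE; limma adjusted p = 0.70). Edn1 differed by 0.22 and Vcam1, an endothelial adhesion molecule, by -0.25. The median differences of the 4 lists, in the order given, were 0.06, 0.02, 0.03 and 0.03, against 0.005 over all genes.

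All 12 epithelial markers were tested, as were all 8 smooth muscle markers and 14 of 16 macrophage and dendritic cell markers, so the samples labelled epithelium also held signal of other cell types. The summed linear intensity of the epithelial markers ranged from 49322 to 105178 in high protein and from 61951 to 92744 in normal protein, and that of the macrophage and dendritic markers from 16090 to 34153 in high protein and from 21625 to 29646 in normal protein. For the smooth muscle markers it ran from 37597 to 79148 in high protein and from 57943 to 79269 in normal protein. Of the lymphocyte markers, 5 of 13 for T and NK cells were tested, with sums of 673 to 1021 in high protein and 786 to 1141 in normal protein, and the B cell markers Cd79a, Cd79b and Ms4a1 could not be tested. The mean log2 level was lower in high protein by 0.36 for the epithelial list, by 0.20 for the macrophage and dendritic list, by 0.30 for the B and plasma cell list and by 0.06 for the T and NK cell list. The mast cell, smooth muscle, fibroblast and endothelium lists differed by -0.23, -0.16, -0.14 and -0.05, so every list was lower. Within the epithelial list the differences ran from -1.62 (Car1) to 0.08 (Epcam), with 11 of 12 below 0. The part of these shifts in the differences above was not tested beyond the covariates named.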

How the data were processed

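Total RNA from 12 samples was measured on single-colour Agilent arrays. Per the file headers, the arrays were scanned at 532 nm with a gain of 600 and read with GenePix Pro 6.1.0.4. The authors deposited spot intensity on a linear scale, not normalized, and a signal less negative controls, for 42877 gene spots and 2343 control spots (30367 probes). A deposited quality score per spot, the GenePix flag, marks good spots with 100. A deposited percent gives the saturated pixels of each spot. They also deposited a table of log2 values. RMA appears in the submitters' processing notes without a stated role. The identifiers of that table are displaced: moved by 1 row it correlated at 0.933 to 0.984 with the scanner values, and as given at -0.011 to 0.011. It served only as an alternative, and its centring is unknown.

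From the mean spot pixel and the median local background, normexp (offset 50), quantile normalization and log2 gave the levels. Spots of a probe were averaged, and control spots were left out. Testing required the good flag on a share of 0.5 or more of a probe's spots in 6 or more of the 12 arrays, irrespective of diet, and the brightest probe stood for its gene. Among 1179 genes there were several tested probes. Names came from RefSeq accessions in a GRCr8 gene table (18809 of 24531 probes with one matched), otherwise from the array, and 1467 of 13204 tested probes had no name and were left out. Saturated pixels reached at most 0.2% of a spot of these genes. The number of arrays limits the precision.

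The diet comparison used lmFit and eBayes of limma 3.58.1 (R 4.3.3; two-sided, 6 arrays each), with Benjamini-Hochberg adjustment over 10449 genes and a threshold of 0.05. The fit was tested on simulated data. Genes, lists and tests were chosen with earlier results of these data known. Named were Tnf, Traf1, Ikbkb, genes with an unadjusted p under 0.05, in each role the 2 genes of smallest p and the 2 of largest difference, genes with 1 array standing apart, and up to 2 genes per direction of each list. Other names were chosen after their values were seen. Alternatives covered scaling, background, offset, filter, probes, slide, replicate block, position, other cells, the deposited table and each array left out.

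Replicate numbers occur in both diets and were not taken as pairs: the correlation of same-numbered arrays' deviations from their diet means was 0.40, 0.32, -0.10, 0.24, -0.03 and -0.11 for numbers 1 to 6.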

Additional observations from a re-analysis of the deposited data

Results flagged for a closer look

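In 4 of the 70 groups of 6 arrays examined (35 genes in each diet), 1 array stood apart from the other 5 by Dixon's test (the gap to the nearest array set against the group's range), where chance flags about 1 in 20 groups. Tnfrsf12a was at 6.65 in high protein replicate 3, below the next array at 7.18. Tnfrsf26 was at 7.55 in normal protein replicate 6, above the next at 6.94. Nfkbie was at 7.06 and Tnf at 7.98 in normal protein replicate 3, above the next normal-protein arrays at 6.79 and 6.82. Before normalization, signal minus local background on that array was 42 for Nfkbie, the lowest of the normal-protein arrays, and 104 for Tnf, the highest. That array had the lowest share of good spots, at 42.67%, and the part of this in the 2 values was not tested.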

How the results depend on the processing

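Under all 15 other settings, of which the median of a probe's spots was added after the data were seen, and all 12 fits that left out 1 array each, 0 genes of the pathway and 0 genes of the array passed the adjusted threshold. Genes of the pathway with an unadjusted p under 0.05 numbered 5, in place of 3, with scaling to the median, with the median spot pixel, without the filter (59 genes tested) and with the replicate number as a block. The share of all genes at these settings was 11.5%, 6.82%, 5.74% and 7.78%, against 6.62%, beside 15.2%, 15.2%, 8.47% and 15.2% of the pathway genes. The count was 2 to 5 when each array was left out, with 5 without high protein replicate 3 or 4, where 8.11% and 8.22% of all genes were called. The replicate numbers were not taken as pairs in the main fit, though of the high-protein arrays 1, 2 and 4 correlated best with their own number. Whether the numbers pair the samples is not known. Genes whose groups did not overlap numbered 1 (Tnfrsf12a) with the deposited signal less negative controls, and 0 to 1 when each array was left out (Tnfrsf12a without normal protein replicate 2, Ikbkb without normal protein replicate 4). The median difference of the tested genes lay between -0.05 and 0.08 over the other settings and between -0.005 and 0.03 when each array was left out.

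Of the 33 tested genes, 16 changed sign in at least 1 fit: 15 in another setting, 6 of them with scaling to the median and 6 with scaling to the 75th percentile, and 11 when an array was left out. Apart from Tnfrsf17 and Tnfrsf4 (0.13, and -0.020 with the 75th percentile), their differences were at most 0.084 in size. Among the genes named by rule the reversals were Tnfrsf26, at -0.063 with scaling to the 75th percentile, -0.028 with the deposited signal less negative controls and -0.0044 without normal protein replicate 5 (range -0.0044 to 0.17), Traf4 at -0.033 with scaling to the 75th percentile, Tnfaip8 at 0.048 with scaling to the median, and Tnfrsf17 at 0.082 with the T and B cell score as a covariate. The cause was not tested. Leaving out each array gave -0.75 to -0.47 for Tnfrsf12a, 0.17 to 0.23 for Ikbkb, 0.16 to 0.23 for Traf1 and 0.15 to 0.24 for Ikbke. Scaling to the median moved the median of all genes to 0.10 and the unadjusted split over all genes to 1128 higher and 78 lower, against 383 and 309 with quantile normalization and 318 and 482 with the 75th percentile. The count of pathway genes above 0 was then 24, 18 and 12 in that order. Dim genes near background, Tnf among them, are limited by signal.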
